A study of Mus musculus with 6 samples.

Results

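Insulin-like growth factor (IGF) signalling was read in whole pancreas of mouse embryos at e16.5 through 10 genes: the ligand Igf1, its receptor Igf1r, the binding protein genes Igfbp1 to Igfbp7, and Igfals, which encodes the acid-labile subunit of the circulating IGF complex. The genes were chosen by their symbols, as a family, with the difference between the groups already known from these libraries, so every value of that difference is given here as a description and supports nothing. All 10 were among the 54735 gene symbols in the tables, and all 10 passed the filter on low counts, as did 19070 symbols in all. The 3 control pancreata carried Neurog3:cre alone, and the 3 RARdn pancreata carried Neurog3:cre together with the allele that the labels call RARdnfl/fl. The letters RARdn usually stand for a dominant-negative retinoic acid receptor, which the labels do not spell out. Both groups had a mixed C57Bl6/129SV background and the same stage. Neurog3 is expressed in endocrine progenitors, whereas the RNA came from the whole organ, acinar, duct, vascular and mesenchymal cells included. Nothing in the labels says whether embryos shared a litter, and the p-values therefore reflect the spread among these 6 samples, part of which may be technical. The description labels of RARdn 2 and 3 begin with a number that differs from the one for RARdn 1, with no explanation.

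IGF1 binds the receptor tyrosine kinase IGF1R, which signals through insulin receptor substrate proteins to PI3 kinase and AKT and promotes growth and survival. The IGF binding proteins hold IGFs with high affinity in tissue and in blood, and they can limit or prolong the action of the ligand. IGFBP3 and IGFBP5 form a ternary complex with the acid-labile subunit, which is made mainly by the liver after birth. In fetal organs, mesenchyme is a known source of IGFs and of several of the binding proteins.

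The 6 libraries held 35256531 to 52015498 counts in genes. The labelled tissue was checked by its markers: all 10 genes of a pancreatic epithelium list were detected, and their summed level was 18958 to 20653 CPM (counts scaled to library size) in controls and 8237 to 23746 CPM in RARdn libraries. Liver transcripts differed between the libraries: the hepatocyte list without Ttr, which islets also express, summed to 26.4 to 35.0 CPM in controls and to 1322, 305 and 36.0 CPM in RARdn 1, 2 and 3. Reads outside genes took 7.60% to 8.99% of all reads in controls and 2.90% to 5.30% in RARdn libraries. By Xist, the transcript of the inactive X chromosome, control 1 and 3 were female, and the other 4 libraries were male.

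Promoters are shown first for the 4 genes whose control and RARdn values did not overlap, a choice made with those values known. Counts were per gene, so which start site the reads came from is not known, and of 3 Igfals windows the one that holds a motif is shown. Each runs 5' to 3' from 250 bases upstream of a RefSeq transcript start to the first transcribed base on GRCm38.p6. Capitals mark 3 motifs searched on both strands that do not overlap each other here: AGGTCA, the half-site bound by retinoic acid and other nuclear receptors, AAAACA, a core of the insulin response element known from the Igfbp1 promoter, and TATAAA, the TATA box.
Igfals, chr17:24877981-24878231, plus strand: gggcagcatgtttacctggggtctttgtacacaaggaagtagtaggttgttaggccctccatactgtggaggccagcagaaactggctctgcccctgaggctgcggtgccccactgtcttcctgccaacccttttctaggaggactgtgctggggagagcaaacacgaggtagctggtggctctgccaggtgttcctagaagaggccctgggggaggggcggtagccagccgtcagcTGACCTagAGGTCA
Igfbp1, chr11:7197537-7197787, plus strand: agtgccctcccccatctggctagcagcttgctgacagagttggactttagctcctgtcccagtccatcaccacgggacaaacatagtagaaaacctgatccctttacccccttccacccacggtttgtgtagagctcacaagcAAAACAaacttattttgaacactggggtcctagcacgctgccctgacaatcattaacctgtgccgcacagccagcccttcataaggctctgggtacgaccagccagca
Igfbp4, chr11:99040994-99041244, plus strand: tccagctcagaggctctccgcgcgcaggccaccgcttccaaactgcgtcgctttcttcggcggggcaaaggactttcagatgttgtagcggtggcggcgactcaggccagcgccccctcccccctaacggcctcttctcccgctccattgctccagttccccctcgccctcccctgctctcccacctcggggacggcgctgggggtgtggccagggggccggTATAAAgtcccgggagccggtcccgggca
Igfbp5, chr1:72874865-72875115, minus strand: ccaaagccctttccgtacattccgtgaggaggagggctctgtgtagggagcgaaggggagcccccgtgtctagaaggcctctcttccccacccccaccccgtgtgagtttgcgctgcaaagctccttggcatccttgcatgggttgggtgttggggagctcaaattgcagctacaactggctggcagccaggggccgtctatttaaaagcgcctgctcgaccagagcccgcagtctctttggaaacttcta
The Igfals window held AGGTCA on both strands within its last 14 bases, and the Igfbp1 window held AAAACA from 107 to 102 bases before the start. In the Igfbp4 window TATAAA lay from 28 to 23 bases before the start, and the Igfbp5 window held none of the 3 motifs.

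RefSeq listed 13 start windows for the 10 genes, 3 of them for Igfals and 2 for Igfbp2. AGGTCA was in 3 of the 13, at Igf1, Igf1r and Igfals, and in 14.1% of all 32851 windows of this length. AAAACA was in 1 of the 13 and in 19.9% of all, and TATAAA in 2 of the 13, at Igfbp4 and Igfbp6, and in 12.4% of all. AGGTCA repeated on 1 strand with a gap of 1 to 5 bases, a form of retinoic acid response element, was in none of the 13 and in 24 of all 32851 windows. These matches describe the letters of each window only.

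The genes spanned a wide range of levels, given here per length as CPM per kilobase (kb) of merged exons. In controls Igfbp4 was at 65.5 ± 10.9 CPM per kb (SD, n = 3), Igfbp5 at 48.3 ± 12.8 and Igfbp7 at 41.0 ± 7.62, and each overlapped the next of these in its 3 libraries. Igf1 followed at 30.0 ± 0.867 and Igfbp3 at 26.3 ± 2.72 CPM per kb, without overlap between them or with Igfbp7. Igfbp2 (12.2 ± 2.64), Igfbp6 (7.33 ± 3.96) and Igf1r (6.43 ± 0.477) formed a lower group in which neighbours overlapped. Igfals stood at 2.24 ± 0.473 and Igfbp1 at 0.217 ± 0.0247 CPM per kb. In RARdn libraries the same order held except that Igfbp3 (30.0 ± 5.47) passed Igf1 (27.7 ± 3.34) and Igfbp1 (1.41 ± 1.34) passed Igfals (0.457 ± 0.190). Igfbp1 and Igfals overlapped there, and Igf1 and Igfbp3 did too.

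RARdn was compared with control by edgeR's quasi-likelihood test with Benjamini-Hochberg adjustment over all 19070 genes tested. Genes are described as called when the adjusted p lay under 0.05. Of the 10 genes, 1 was called lower (Igfals), beside 2.65% of all genes, and 0 were called higher, beside 1.37% of all genes. At an unadjusted p under 0.05 there were 5 of the 10, beside 22.2% of all genes: Igfals below 0, and Igfbp1, Igfbp4, Igfbp5 and Igfbp7 above 0. DESeq2 called these same 5, beside 9.58% of all genes it tested. The groups did not overlap for 3 genes that lay higher in RARdn, Igfbp1, Igfbp4 and Igfbp5, beside 13.9% of all genes, and for 1 that lay lower, Igfals, beside 13.7% of all genes. The median log2 fold change was 0.38 over the 10 genes and 0.0005 over all genes tested. Since the genes were chosen with this comparison known, nothing is read from these shares.

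**Figure D1:**
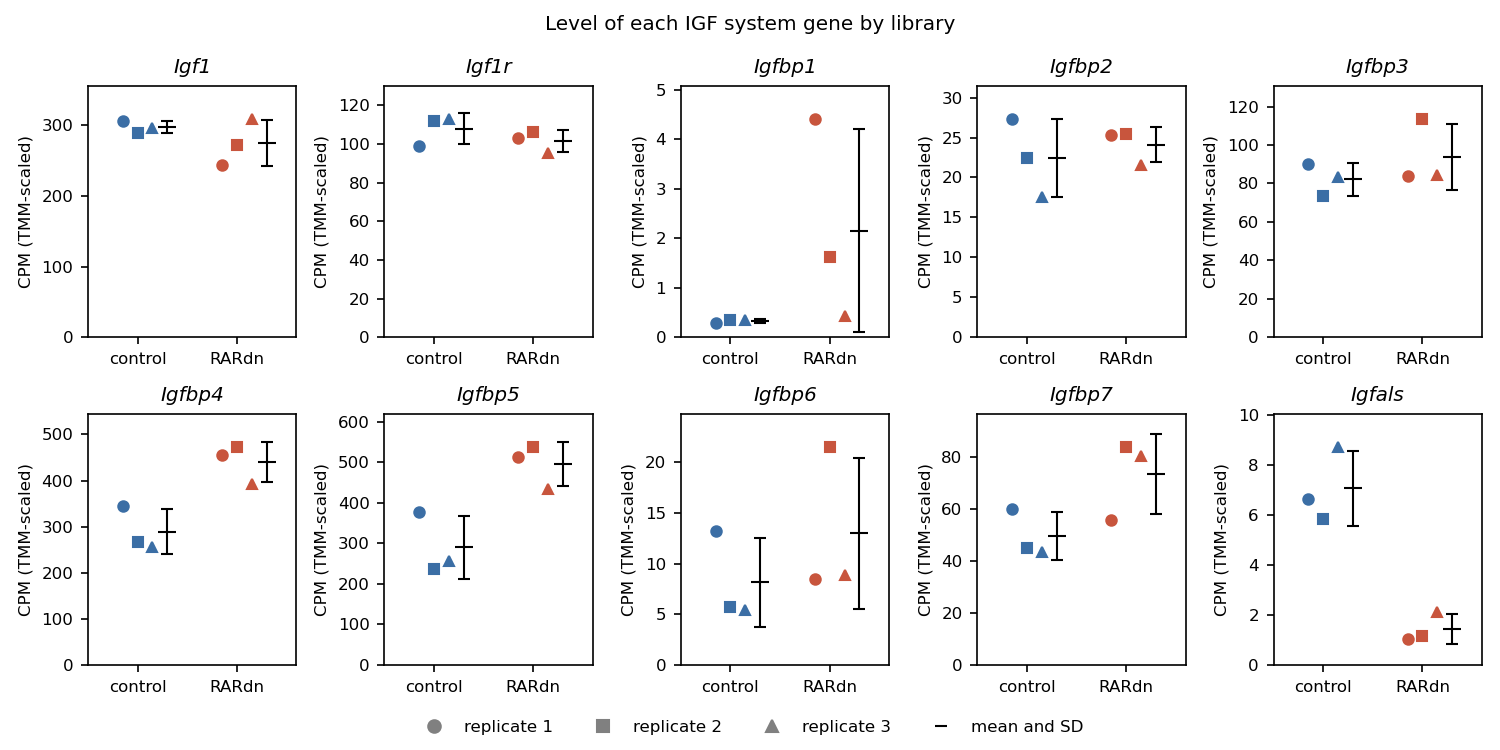
Each panel plots the TMM-scaled level of 1 gene (CPM, linear axis from 0) in the 3 control (blue) and 3 RARdn (red) libraries, with the mean and SD of each group in black. Igfals lies at 5.86 to 8.75 CPM in controls and 1.04 to 2.14 CPM in RARdn, Igfbp4 and Igfbp5 lie higher in all 3 RARdn libraries than in any control, and Igfbp1 is high in RARdn 1 and 2.

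The ligand and its receptor were close to control levels. Igf1 (chromosome 10, 87858265 to 87937042, GRCm38) stood at 306, 289 and 296 CPM in control 1, 2 and 3, against 243, 272 and 309 CPM in RARdn 1, 2 and 3. The groups overlapped, and the RARdn libraries spread more widely (SD 33.0) than the controls (SD 8.59). The log2 fold change of Igf1 was -0.11 (SE 0.13, adjusted p = 0.659). Igf1r (chromosome 7, 67952827 to 68233668), the receptor through which both IGFs signal growth, was at 98.7, 112 and 113 CPM in controls, against 103, 106 and 95.3 CPM in RARdn libraries. Its groups overlapped as well (log2 -0.09, SE 0.10, adjusted p = 0.659). Over 16 alternative settings Igf1 stayed between -0.20 and -0.0043 and Igf1r between -0.15 and -0.04 on the log2 scale, and neither was called in any of them.

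Igfals was the called gene. It lies on chromosome 17 (24865997 to 24882010) and encodes a leucine-rich repeat protein that binds IGF complexes in blood. It stood at 6.63, 5.86 and 8.75 CPM in control 1, 2 and 3, against 1.04, 1.16 and 2.14 CPM in RARdn 1, 2 and 3, from raw counts of 254 to 378 and of 59 to 65. Every RARdn library was below every control. The log2 fold change was -2.32 (SE 0.31, adjusted p = 0.0117, edgeR), a ratio of group means of 0.205. The male control, control 2, was at 5.86 CPM and the 3 male RARdn libraries were at 1.04 to 2.14 CPM. Igfals was not called with a term for sex (log2 -2.04, adjusted p = 0.0950) or without RARdn 2 (log2 -2.18, adjusted p = 0.0537), and it was called in the other 14 of 16 alternatives. The gene is best known from liver, and RARdn 1, with Alb at 597 CPM, had Igfals at 1.04 CPM. The share of reads outside genes was lower in every RARdn library. The part of liver transcripts and of that share in the Igfals result was not tested.

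No gene next to Igfals was called. Of 9 tested genes within 100 kb, a window set after the values were seen, 0 were called by edgeR. Over all genes, 1.37% were called higher and 2.65% lower, so few calls would be found among 9 genes in any case. Fahd1 and Eme2 lay lower and Spsb3 higher in RARdn without overlap of the groups, beside 13.7% and 13.9% of all genes. The 9 log2 fold changes ran from -0.59 (Eme2, adjusted p = 0.136) to 0.65 (Spsb3, adjusted p = 0.126). Hagh, which ends 1.55 kb before Igfals on the same strand, was at -0.12 (adjusted p = 0.666), and Nubp2, which lies 0.6 kb beyond it on the other strand, was at -0.06 (adjusted p = 0.839). Beyond that window, 144 kb away, lies the ribosomal protein gene Rps2, named here with its values known. Rps2 was called lower (1219, 638 and 1223 CPM in controls, 34.2, 33.9 and 40.5 CPM in RARdn, log2 -4.83, adjusted p = 0.000175), although reads of its many processed copies can be lost or split. GENCODE gives no gene that overlaps Igfals.

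**Figure D2:**
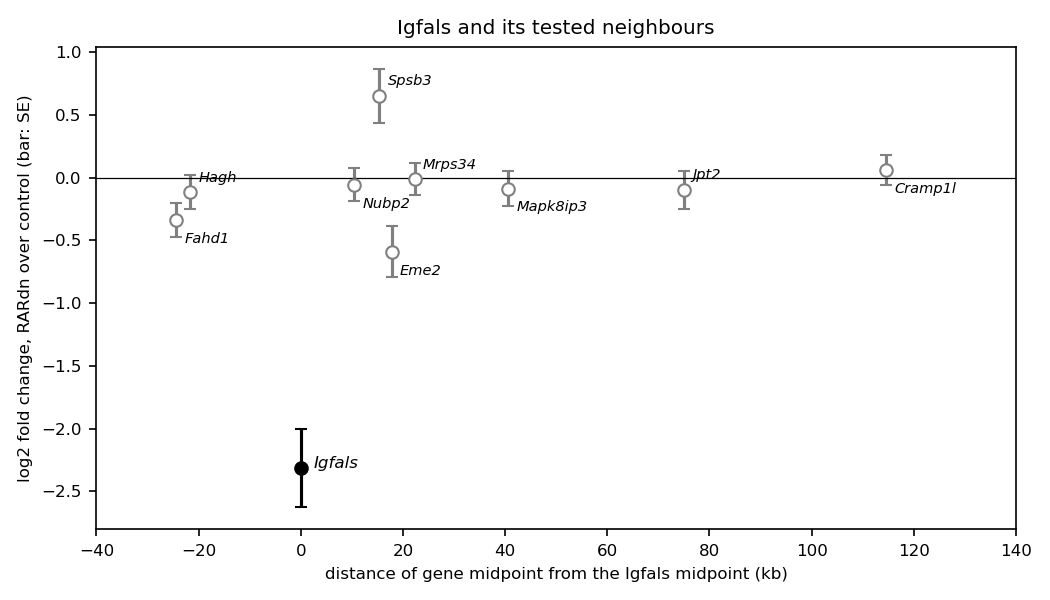
The horizontal axis is the distance of each gene's midpoint from that of Igfals in kb and the vertical axis the log2 fold change of RARdn over control, with the SE as bars. Igfals (filled) lies at -2.32, and the 9 tested neighbours (open) lie between -0.59 and 0.65.

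The 3 genes whose profile over the 6 libraries came closest to that of Igfals, among 13550 genes averaging 2 CPM or more, were H2-K1, Gm5786 and Gt(ROSA)26Sor. The measure was the root mean square difference of log2 CPM after each gene was centred on its own mean, and it came to 0.334, 0.345 and 0.346, against an SD of 1.32 for Igfals itself. H2-K1, a class I histocompatibility gene that lies 9114 kb from Igfals on chromosome 17, was at 144, 89.9 and 162 CPM in controls, against 17.9, 37.6 and 45.1 CPM in RARdn libraries. Reads of H2-K1 can be split with its near relatives. Gm5786, a processed pseudogene on chromosome 12, was at 4.19 to 6.86 CPM in controls and 1.23 to 1.58 CPM in RARdn libraries. Gt(ROSA)26Sor, the noncoding transcript of the Rosa26 locus on chromosome 6, was at 2.77 to 4.58 CPM in controls and 0.612 to 0.691 CPM in RARdn libraries.

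Igfbp5 and Igfbp4, the binding protein genes with the most counts, lay higher in every RARdn library than in any control, without being called. Igfbp5 (chromosome 1, 72857932 to 72874884), whose product binds extracellular matrix, was at 378, 236 and 256 CPM in controls, against 514, 539 and 435 CPM in RARdn libraries. Control 1 was the highest control and RARdn 3 the lowest RARdn library. The log2 fold change of Igfbp5 was 0.77 (SE 0.20, adjusted p = 0.0709, edgeR), a ratio of means of 1.71. It was called without control 1 (log2 1.01, adjusted p = 0.0464), without RARdn 3 (log2 0.87, adjusted p = 0.0294), without a filter on low counts (0.00994) and by DESeq2 (0.00194). These were the only 4 calls of Igfbp5 over 16 alternatives. The adjusted p reached 0.274 in the others, and Igfbp5 was not called with the sex term.

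Igfbp4 (chromosome 11, 99041244 to 99054392), a binding protein that the protease PAPP-A cleaves, was at 345, 266 and 257 CPM in controls, against 456, 474 and 392 CPM in RARdn libraries. Its libraries fell in the same order as those of Igfbp5 within RARdn, and control 1 was again the highest control. On the log2 scale Igfbp4 differed by 0.61 (SE 0.16, adjusted p = 0.0756, edgeR), a ratio of means of 1.53. Igfbp4 was called without RARdn 3 (log2 0.69, adjusted p = 0.0248), without a filter on low counts (0.0240) and by DESeq2 (0.00284). In the rest of the 16 alternatives, the sex term included, Igfbp4 was not called (adjusted p up to 0.384).

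Igfbp7 (chromosome 5, 77349240 to 77408041), a low-affinity IGF binder that is abundant around vessels, was at 60.2, 45.1 and 43.5 CPM in controls, against 56.0, 84.1 and 80.6 CPM in RARdn libraries. RARdn 1 lay below control 1, so the groups overlapped, while RARdn 2 and 3 stood above all controls. On the log2 scale Igfbp7 differed by 0.57 (SE 0.18, adjusted p = 0.114, edgeR). It was called without RARdn 1 (log2 0.76, adjusted p = 0.0349), without a filter on low counts (0.0204) and by DESeq2 (0.0469). In the rest of the 16 alternatives, the sex term included, Igfbp7 was not called (adjusted p up to 0.417). Of the exon bases of Igfbp7, 7.03% are shared with Polr2b on the other strand, and the strand setting of the counting is not known.

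The summed mesenchyme list lay higher in all 3 RARdn libraries than in any control, as Igfbp4 and Igfbp5 did and Igfbp7, through RARdn 1, did not. The 12 genes of the mesenchyme list summed to 5469 to 7396 CPM in controls and to 9042 to 10145 CPM in RARdn libraries. All 12 had a log2 fold change above 0, beside 9543 of all 19070 genes tested. The groups did not overlap for 7 of the 12, beside 13.9% of all genes that lay higher without overlap. They overlapped for Pdgfrb, Postn, Fn1, Twist1 and Prrx1. Of the 12, 1 was called higher by edgeR (Lum, a small proteoglycan, log2 1.07, adjusted p = 0.0128), beside 1.37% of all genes, which is also the share for the next lists. Control 1 had the highest sum among controls. The smooth muscle sum was also higher without overlap (152 to 222 and 271 to 429 CPM, 3 of 7 called higher: Acta2, Cnn1 and Rgs5). So was the immune sum (73.2 to 112 and 133 to 172 CPM, 1 of 8 called higher: Csf1r). The endocrine sum was higher without overlap as well (756 to 858 and 873 to 1256 CPM), but edgeR called 0 of its 12 members. Of these 12, 5 separated the groups upward, while 3 differed downward: Rfx6 (log2 -0.52), Pax6 (-0.13) and Pcsk1 (-0.04). The part of the smooth muscle, immune and endocrine lists in the binding protein values was not tested. Per 1000 counts of the mesenchyme list, Igfbp4 stood at 46.6, 48.7 and 41.4 in controls and 50.5, 46.7 and 42.2 in RARdn libraries. Igfbp5 stood at 51.2, 43.2 and 41.3 and at 56.9, 53.1 and 46.7. Igfbp7 stood at 8.13, 8.24 and 7.01 and at 6.19, 8.29 and 8.67 on the same scale. The groups overlapped in each of these 3 ratios. Igf1 stood at 41.4, 52.9 and 47.8 per 1000 mesenchyme counts in controls and at 26.9, 26.8 and 33.2 in RARdn libraries, which did not overlap. Igfbp3 stood at 12.2, 13.4 and 13.5 and at 9.26, 11.2 and 9.07 on this scale, also lower in RARdn libraries without overlap. Most of the mesenchyme sum came from Col1a1, Col1a2 and Col3a1 (means of 1735, 1199 and 2115 CPM in controls, 2567, 1930 and 3166 CPM in RARdn libraries). The ratios are therefore largely ratios to collagen transcripts. They were chosen after the values were seen and carry no test. In RNA of a whole organ, fewer cells of a type and less RNA per cell cannot be told apart.

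**Figure D3:**
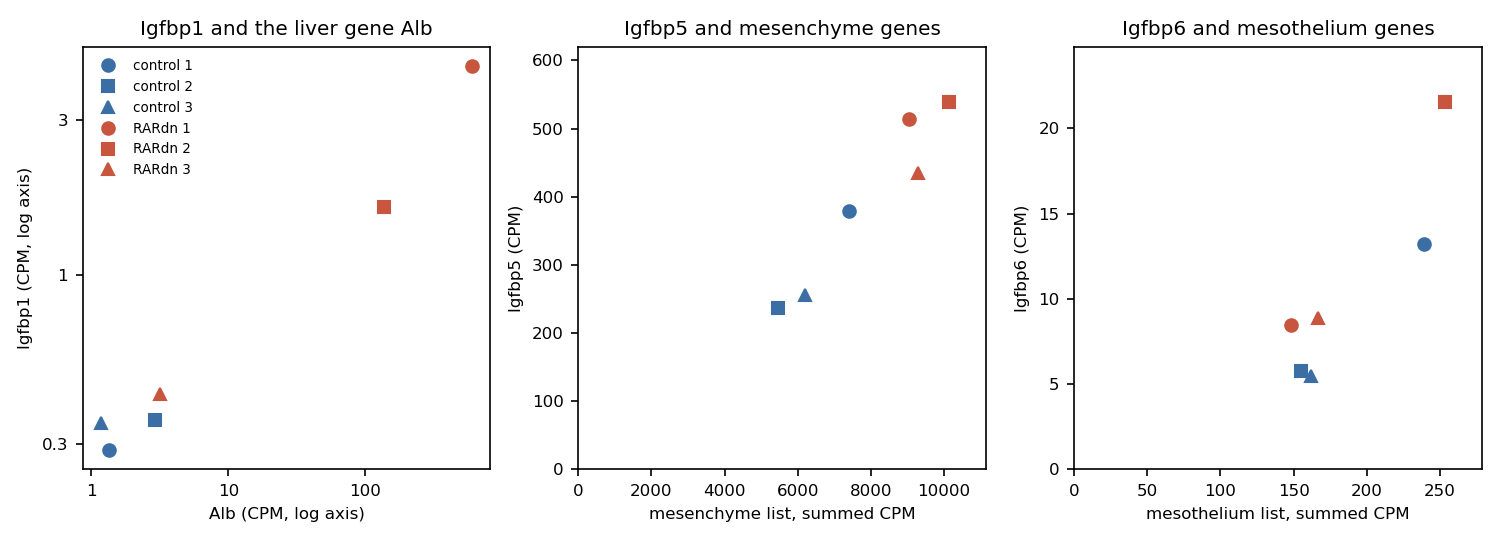
Each panel plots 1 gene against cell type transcripts in the same library, with controls in blue and RARdn in red: Igfbp1 against Alb (CPM, both axes logarithmic), Igfbp5 against the summed mesenchyme list and Igfbp6 against the summed mesothelium list (CPM, linear axes from 0). Igfbp1 and Alb are both highest in RARdn 1 (4.41 and 597 CPM), Igfbp5 and the mesenchyme sum are both highest in RARdn 2, and Igfbp6 and the mesothelium sum are both high in control 1 and RARdn 2.

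Igfbp1 was nearly silent in controls and highest in the RARdn libraries with the most liver transcripts. It lies on chromosome 11 (7197782 to 7202546) and encodes a hepatic binding protein that insulin represses. Its raw counts were 11, 16 and 15 in controls and 258, 82 and 13 in RARdn 1, 2 and 3, or 0.287, 0.356 and 0.347 CPM and 4.41, 1.62 and 0.428 CPM. RARdn 1 and 2 stood well above the rest, and RARdn 3 was just above the controls. The liver gene Alb was at 1.18 to 2.92 CPM in controls and at 597, 137 and 3.19 CPM in RARdn 1, 2 and 3. The hepatocyte list without Ttr summed to 26.4 to 35.0 CPM in controls and to 1322, 305 and 36.0 CPM in RARdn 1, 2 and 3. The log2 fold change of Igfbp1 was 2.72 (SE 0.72, adjusted p = 0.0761, edgeR). It was called without RARdn 3 (log2 3.18, adjusted p = 0.0128), without a filter on low counts (0.00342) and by DESeq2 (0.00134). In the rest of the 15 alternatives that tested it, the sex term included, Igfbp1 was not called (adjusted p up to 0.475). Without RARdn 1 the difference was smaller (log2 1.67, adjusted p = 0.122), and with at least 1 CPM in 3 libraries Igfbp1 was not tested. Per 1000 Alb counts, Igfbp1 stood at 212, 122 and 294 in controls and at 7.39, 11.8 and 134 in RARdn 1, 2 and 3, with overlap. That ratio was chosen after the values were seen, and the part of liver transcripts in the Igfbp1 difference was not tested.

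Igfbp6 (chromosome 15, 102144362 to 102149511), which prefers IGF2 over IGF1, was at 13.2, 5.75 and 5.46 CPM in controls, against 8.46, 21.5 and 8.89 CPM in RARdn libraries. The groups overlapped because control 1 exceeded RARdn 1 and 3 (log2 0.68, SE 0.44, adjusted p = 0.405). The difference was 0.10 on the log2 scale without RARdn 2 (adjusted p = 0.924) and 1.21 without control 1 (adjusted p = 0.173). Its 2 highest libraries, RARdn 2 and control 1, also had the highest sums of the mesothelium list (253 and 239 CPM, against 148 to 167 CPM in the other 4). The 7 members of that list did not move together: 4 differed upward and 3 downward in RARdn. Muc16 was at 27.6 CPM in control 1 and 9.43 CPM in RARdn 2. Per 1000 counts of the list, Igfbp6 stood at 55.4, 37.1 and 33.7 in controls. In RARdn libraries it stood at 57.0, 85.0 and 53.3, with overlap. That ratio carries no test, and the part of mesothelial transcripts in the Igfbp6 values was not tested.

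Igfbp3 and Igfbp2 did not separate the groups. Igfbp3 (chromosome 11, 7206086 to 7213923), the main carrier of IGFs in adult blood, was at 90.2, 73.2 and 83.4 CPM in controls, against 83.7, 114 and 84.4 CPM in RARdn libraries, with RARdn 2 alone above the controls (log2 0.19, SE 0.14, adjusted p = 0.473). Igfbp2 (chromosome 1, 72824503 to 72852474), a fetal binding protein, was at 27.4, 22.5 and 17.6 CPM in controls, against 25.3, 25.4 and 21.6 CPM in RARdn libraries (log2 0.10, SE 0.16, adjusted p = 0.760). The RARdn values of Igfbp2 lay inside the range of the controls. Summed over Igfbp1 to Igfbp7, the binding protein genes came to 914, 649 and 663 CPM in controls, against 1148, 1259 and 1023 CPM in RARdn libraries, which did not overlap and which Igfbp4 and Igfbp5 dominate.

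**Figure D4:**
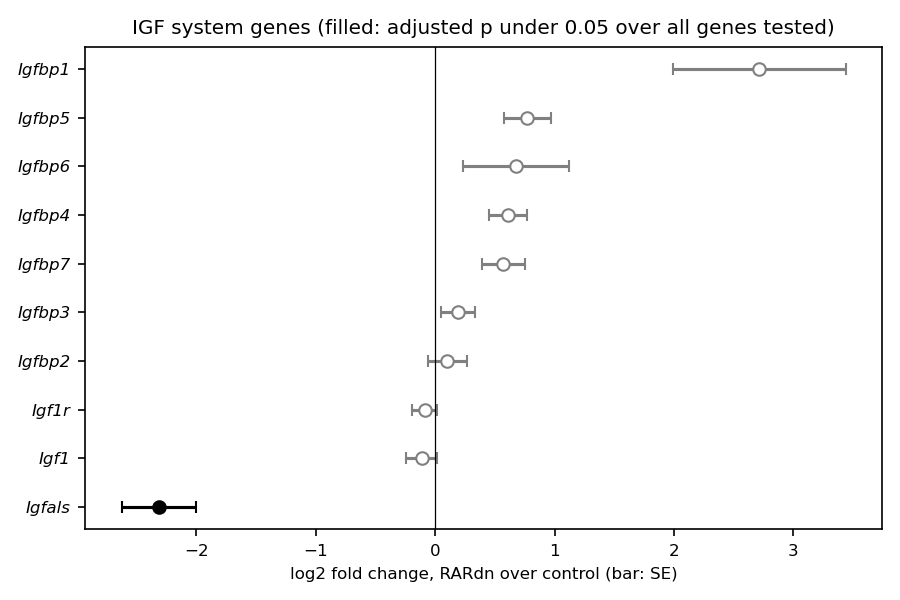
Each point is the log2 fold change of RARdn over control for 1 gene, with its SE as a bar, filled where the adjusted p over all genes was under 0.05. Igfals at -2.32 is the filled point, Igfbp1 has the widest positive difference (2.72), and Igf1, Igf1r and Igfbp2 lie near 0.

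Several of these genes are neighbours in the genome. Igfbp2 and Igfbp5 lie 5.46 kb apart on chromosome 1, tail to tail, and had log2 fold changes of 0.10 and 0.77. Igfbp1 and Igfbp3 lie 3.54 kb apart on chromosome 11, also tail to tail, with 2.72 and 0.19. Igfbp4 lies 66.3 kb from Rara, a retinoic acid receptor gene that was called higher (33.9, 33.0 and 31.3 CPM in controls, 43.7, 46.4 and 46.9 CPM in RARdn, log2 0.48, adjusted p = 0.0256). Igfbp6 lies 85.4 kb from Rarg, another receptor gene called higher (18.0 to 20.6 and 24.6 to 28.2 CPM, log2 0.51, adjusted p = 0.0438). The other 3 tested genes within 100 kb of Igfbp4, Top2a, Gjd3 and Tns4, were not called (log2 -0.52, 1.45 and 0.34, adjusted p = 0.130, 0.394 and 0.640). Of 8 tested genes within 100 kb of Igfbp6, Rarg alone was called. The shares of all genes to set beside these neighbours are 1.37% called higher and 2.65% called lower. The log2 fold changes of the 8 genes near Igfbp6 ran from -0.24 (Eif4b) to 0.52 (Tns2, adjusted p = 0.0761 by edgeR). Rara and Rarg were named with their values known. Whether transcripts of the RARdn allele were counted under either symbol is not known and was not tested.

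The rest of the pathway was read from 59 other genes, of which 58 were tested. By edgeR, 1 was called higher (1.37% of all genes) and 1 lower (2.65% of all genes). An unadjusted p under 0.05 was seen for 19 of the 58, beside 22.2% of all genes, which is also the share to set beside the counts of each list that follow. The median log2 fold change was 0.08, beside 0.0005 over all genes. The 2 called genes were ligands. They belong to a list of 6 ligand and receptor genes, of which 4 had an unadjusted p under 0.05 by edgeR. In that list 1 gene lay higher and 4 lower without overlap of the groups, beside 13.9% and 13.7% of all genes. Igf2, the fetal growth factor that also signals through Igf1r, was at 121, 115 and 123 CPM in controls, against 211, 188 and 155 CPM in RARdn libraries, with no overlap (log2 0.63, SE 0.13, adjusted p = 0.0400). Igf2 is uncertain, since in GENCODE M21 it shares 62.8% of its exon bases with Gm49394 on the same strand, and how such reads were counted is not known. Ins2, 1 of the mouse insulin genes, was at 1049 to 1388 CPM in controls and 594 to 776 CPM in RARdn libraries (log2 -0.85, SE 0.18, adjusted p = 0.0431). Leaving out control 1, control 2, control 3 or RARdn 2 ended both calls (adjusted p = 0.101, 0.191, 0.131 and 0.0989 for Igf2, and 0.114, 0.163, 0.0930 and 0.113 for Ins2). Nor was either called with the sex term (0.324 and 0.365), with protein-coding genes alone (0.0741 and 0.0683) or with at least 1 CPM in 3 libraries (0.0629 and 0.0623).

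None of the other 3 receptor genes of the family was called by edgeR or DESeq2, and they were chosen for mention after their values were seen. Insr, the insulin receptor, was at 62.8, 67.5 and 65.0 CPM in controls, against 51.4, 54.9 and 53.1 CPM in RARdn libraries, and no RARdn library reached the controls (log2 -0.29, SE 0.09, adjusted p = 0.0943). Igf2r, which takes up and degrades IGF2, was at 405 to 432 CPM in controls and 332 to 375 CPM in RARdn libraries, again without overlap (log2 -0.23, SE 0.13, adjusted p = 0.323). Insrr, the insulin receptor-related receptor, was at 21.7, 25.5 and 21.9 CPM in controls, against 26.7, 19.1 and 15.6 CPM in RARdn libraries, and its groups overlapped with RARdn 1 the highest library (log2 -0.16, SE 0.19, adjusted p = 0.653).

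Downstream of the receptors, edgeR called 0 of 10 adaptor genes (2 with an unadjusted p under 0.05; DESeq2 called Irs1) and 0 of 20 genes of PI3 kinase, AKT, mTOR and FOXO signalling (6 under 0.05; DESeq2 called 1). The most abundant adaptors were Grb10, which dampens receptor signalling (708 ± 8.66 and 828 ± 67.4 CPM, adjusted p = 0.402), and Irs2, a docking protein of the receptors (138 ± 25.3 and 103 ± 24.7 CPM, adjusted p = 0.254). Irs1, the other main docking protein, was at 10.5 to 11.3 CPM in controls and 14.6 to 15.9 CPM in RARdn libraries (log2 0.45, adjusted p = 0.0709 by edgeR and 0.0246 by DESeq2), and 30.9% of its exon bases are shared with Gm9747 on the other strand. The kinase genes Akt1 and Akt2 differed little on the log2 scale (-0.02 and 0.03, adjusted p = 0.944 and 0.918).

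None of 6 genes that cleave binding proteins or inhibit that cleavage was called by edgeR (2 with an unadjusted p under 0.05; DESeq2 called 0). The serine proteases Htra3 and Htra1 were the most abundant, at 53.6 ± 11.9 and 80.4 ± 27.7 CPM (adjusted p = 0.209) and 33.9 ± 3.17 and 35.8 ± 6.20 CPM (adjusted p = 0.779). Among 5 genes of the growth hormone axis 0 were called by edgeR (2 under 0.05) and 0 by DESeq2. All 5 had a log2 fold change above 0, beside 9543 of all 19070 genes tested. The receptor Ghr and the transcription factor Stat5b were at 0.03 (adjusted p = 0.933) and 0.28 (adjusted p = 0.129). Of 9 secreted proteins with an IGFBP-like domain 8 were tested and 0 called by edgeR (3 under 0.05; DESeq2 called Wisp1, a matricellular protein, at log2 0.92, adjusted p = 0.0342). The most abundant of these, Cyr61 and Crim1, stood at -0.33 and 0.44 on the log2 scale (adjusted p = 0.687 and 0.171), and control 2 stood apart for Cyr61 (34.9 CPM against 10.5 to 15.3 CPM in the other 5 libraries). The IGF2 mRNA-binding protein genes Igf2bp2 and Igf2bp3 had log2 fold changes of 0.07 and -0.13 (adjusted p = 0.753 and 0.670), and 0 of the 3 were called by edgeR (0 under 0.05; DESeq2 called 0).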

How the data were processed

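Total RNA of 6 whole pancreata was sequenced. The authors deposited raw read counts per gene symbol, 1 table per sample. The submitters' processing notes name HISAT2, HTSeq, DESeq2, FastQC, cutadapt and bedtools, and the builds mm10 and GRCm38. Not given in the sources used here: tool versions, annotation, strand setting and read filters. The 5 summary lines (unassigned reads, 2.90% to 8.99% of all reads outside genes and 11.1% to 15.9% not uniquely aligned) were left out of library sizes.

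The test used edgeR 4.0.16 (R 4.3.3) on the counts: filterByExpr with the group, TMM scaling, and the 2-sided quasi-likelihood test with genotype as the only term, adjusted over 19070 genes by the Benjamini-Hochberg method. CPM are TMM-scaled, values after ± are SDs over 3 libraries, and each SE was worked back from the F statistic and the log2 fold change. Positions and exon lengths came from GENCODE M21 (GRCm38), which held 54000 of the symbols once. The fit was tested on simulated data. Alternatives were DESeq2 1.42.0, limma-voom (limma 3.58.1), RLE scaling, robust dispersions, other filters, a replicate block, a sex term, protein-coding genes, no acinar genes, and leaving out each library. No 2 libraries of a group were copies (chi-square per degree of freedom at least 13.8).

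The 10 genes and all lists were chosen with earlier results of these data known. The 10 were always named. From each pathway list, called genes were named, filled up to 2 with the most abundant, and others are said to be chosen later, apart from those that DESeq2 called or that stood apart in 1 library, which were also chosen after their values were seen. For 1 listed gene, values are not reported here.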

Additional observations from a re-analysis of the deposited data

How the results depend on the processing

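Over all genes, 767 were called (262 higher, 505 lower). The count was 2302 with DESeq2 (1026 higher, 1276 lower), 2346 without a filter on low counts (1123 and 1223), 217 with at least 1 CPM in 3 libraries, 111 with protein-coding genes alone and 61 with the sex term, and 100 to 2980 when 1 library was left out. It was highest without RARdn 3 (2980) and lowest without control 2 (100), RARdn 2 (130), control 3 (297) and control 1 (343). Of the 10 genes of the IGF system, 1 was called in the main test, 5 with DESeq2 or when low counts were kept, 0 with the sex term, and 0 to 4 when 1 library was left out. Fewer genes were tested with the CPM minimum (15102) and with protein-coding genes (15003). What caused any of these shifts in the number of genes called was not tested. Igfbp2 alone of the 10 changed sign, in 1 of 16 alternatives and without a call (lowest log2 value -0.0435). The deviations of same-numbered libraries correlated at 0.0129, -0.0135 and 0.126. For differently numbered libraries the highest values were 0.092, 0.0436 and -0.0593. With 3 libraries per group, such values cannot tell whether the numbers pair the samples by litter or batch. With the replicate block, 817 genes were called, 632 of them also in the main test, and 1 of the 10, Igfals, while Igf2 (adjusted p = 0.0506) and Ins2 (0.0541) lost their calls. Igfbp1, at 11 to 16 counts in controls, and Igfals, at 59 to 65 counts in RARdn libraries, are limited by depth.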
